A study of Rattus norvegicus with 2 samples.

Results

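The 10 genes of the Nrf2 antioxidant pathway were followed in cultured rat hepatocytes, the main functional cells of the liver, given triiodothyronine (T3, the active thyroid hormone) or no hormone. The members were all probe sets whose gene symbol in the deposited sheet was Srxn1, Txnrd1, Nqo1, Gclc, Gclm, Slc7a11, Gsr, Prdx1, Nfe2l2 or Keap1, once a suffix marking a predicted or mapped gene was removed. The 10 genes had 15 probe sets, of 31038 analysed on the array, and 13510 genes in all had a single symbol. The labels give male SD rats, a laboratory strain, as the source of the cells, which were grown on collagen in hepatocyte medium that held growth factors. By title and source name the control group had no T3 and the T3 group had 1 nM T3 for 24 h. The treatment field, which has the same wording for both samples, names T3 for the control too; the title was followed, and the direction of every ratio rests on it. No genetic change is named, and the medium's own hormone content is not stated. Each group was 1 Affymetrix array of total RNA, so no difference was tested, and no p-value for a difference or replicate error can be given. Precision is limited by having 2 arrays.

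Nrf2, the protein of the Nfe2l2 gene, is a transcription factor that is held in the cytoplasm by Keap1, which presents it to a ubiquitin ligase for breakdown. Oxidants and electrophiles modify cysteines of Keap1, Nrf2 then builds up, pairs with small Maf proteins and binds antioxidant response elements beside genes for glutathione synthesis, thioredoxin and quinone reduction. Hepatocytes, which handle many reactive compounds, are a well-known site of this response.

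Srxn1 had the lowest T3 to control ratio of the 10 genes. It encodes sulfiredoxin, which repairs peroxiredoxins whose catalytic cysteine has been overoxidised, and its brighter probe set (1372510_at) had a signal of 725 without and 478 with the hormone, which is 0.659 times the control signal. Slc7a11 and Gsr were lower by less, at ratios of 0.747 and 0.791. The regulators Nfe2l2 (1.07) and Keap1 (1.12 in its brighter probe set) and the classical targets Nqo1 (0.971), Gclc (1.02) and Gclm (1.05) had nearly the same signal in both cultures. Signals are MAS5 intensities with no unit, scaled by the authors to a common level, and a ratio under 1 means a lower signal with T3.

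The promoter of Srxn1 is shown because it is the member that differed most. It covers the 250 bases before and 50 after the gene's start in RefSeq, rat build GRCr8, chr3:161064562-161064861, plus strand, written 5′ to 3′. Capitals mark 1 match to AGGTCA, the half-site that nuclear receptors recognise, and 2 matches to TGANTCA, the core that AP-1 and small Maf proteins recognise.
Srxn1: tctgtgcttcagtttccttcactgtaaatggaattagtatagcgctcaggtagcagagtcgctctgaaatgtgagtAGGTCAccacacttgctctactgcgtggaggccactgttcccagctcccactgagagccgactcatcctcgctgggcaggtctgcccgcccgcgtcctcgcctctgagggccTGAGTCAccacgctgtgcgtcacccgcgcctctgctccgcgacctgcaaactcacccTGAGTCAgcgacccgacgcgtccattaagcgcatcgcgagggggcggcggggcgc
The half-site begins 174 bases before the start, and the other matches begin 62 and 5 bases before it. Of the 33469 promoters of this length in the RefSeq table, 16.2% held AGGTCA and 7.33% held TGANTCA on either strand. The search for TGANTCA was added after the promoters had been read. Of the 10 promoters of 9 member genes in the table (Txnrd1 has 2, and Gsr is not matched), Srxn1 was the 1 that held AGGTCA, while TGANTCA was also found in Prdx1. Srxn1 had no match within this window to TGACNNNGC, the form of the antioxidant response element core that was searched. The match 5 bases before the start reads TGAGTCAgc, which differs from that form by G in place of C. Other forms of the core were not searched, so the lack of a match is not the lack of an element.

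TGACNNNGC was found in the promoters of Gclm, Prdx1, Nfe2l2 and in 1 of the 2 of Txnrd1, beside 12.1% of all promoters in the table. The matches in the 3 target genes are shown with 15 bases on either side, as the members' examples of the element that Nrf2 is known to bind. Srxn1 and Slc7a11, which were lower, had no match to this string. Neither had Nqo1, Gclc and Keap1, whose brighter or single probe sets were near control. Sequence outside these windows was not searched, and a link between matches and ratios was not tested. Capitals mark the match, which reads TGACNNNGC on the opposite strand.
Gclm: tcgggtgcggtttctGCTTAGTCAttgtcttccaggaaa
Prdx1: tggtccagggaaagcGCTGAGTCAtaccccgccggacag
Txnrd1: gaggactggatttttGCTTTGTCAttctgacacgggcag
The matches begin 172 bases before the start in Gclm, 135 in Prdx1 and 78 in Txnrd1. They lie in the RefSeq GRCr8 windows chr2:213031885-213032184 (plus strand), chr5:135383656-135383955 (plus strand) and chr7:22755855-22756154 (minus strand). In Prdx1 the match overlaps a TGANTCA match that begins 133 bases before the start. A match of letters is a description of the window, and binding was not measured.

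Present calls were made for 56.7% of all probe sets in control and 55.6% with T3. A present call means that the perfect-match probes were reliably brighter than their mismatch partners. Of the 15 member probe sets, 14 were present on both arrays, and 1 of the 3 for Srxn1 was absent on both. A probe set was counted as past 1.5-fold if it was also present on the brighter array. By this rule 1 of the 10 genes, Srxn1, was lower with T3 and 0 were higher, when each gene was represented by its brightest probe set. Over all 9670 detected genes 1.68% were past 1.5-fold lower and 2.81% higher. By probe sets, 1 of the 14 members was lower and 0 were higher, against 2.65% lower and 4.11% higher among the 18332 probe sets present on at least 1 array. A count of 1 among 10 genes cannot show that the group differs from these shares.

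As a group the members lay close to the median of all genes. The median log2 ratio of the 10 genes was -0.03, beside 0.00 over all detected genes, and 6 of the 10 were below 0, beside 49.9% of all detected genes. The median was 0.01 after quantile normalization and 0.00 after loess, so its sign depends on the scaling. Of the 14 present probe sets 9 were below control and 5 above, beside 51.4% below control over all probe sets present on both arrays. Of the 14, 10 lay within 1.2-fold. The other 4, both of Srxn1 and those of Slc7a11 and Gsr, were all lower with T3. The share within 1.2-fold was 78.9% over all probe sets present on both arrays. How the rest of these split into lower and higher was not counted. This reference set is not matched to the members in signal. The lowest signal of a present member was 46.5, while the dimmest of 5 bins by mean signal, where ratios spread most, ended at 35.7. The share below control was 45.1% in that bin and 55.2% in the brightest.

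**Figure D1:**
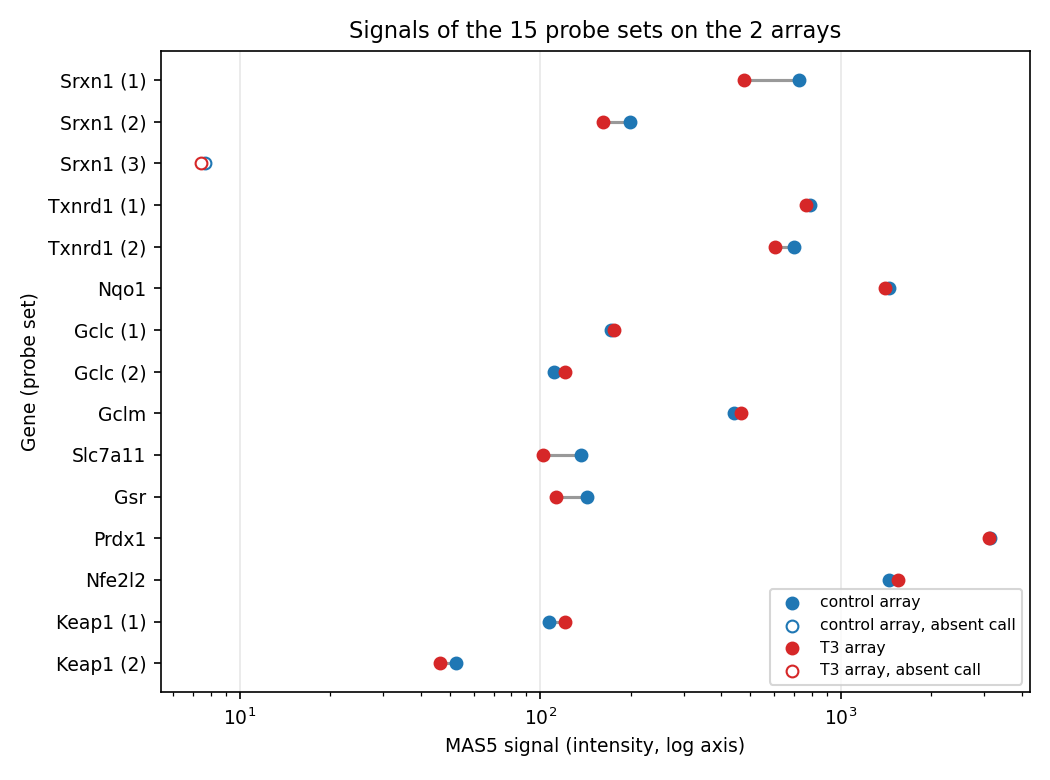
MAS5 signal (log axis) of each of the 15 member probe sets on the control array (blue) and the T3 array (red), 1 row per probe set, with numbers in brackets for probe sets of the same gene; open circles were called absent. The widest gap is in Srxn1 (1), from 725 to 478, while Prdx1, Nqo1 and Txnrd1 (1) have points that nearly coincide.

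The regulators differed little between the cultures. Nfe2l2 gave 1449 without and 1547 with T3 in its single probe set (1367826_at), a ratio of 1.07. In Keap1, the cytoplasmic inhibitor, the brighter probe set (1370066_at) had 107 and 121, a ratio of 1.12. The dimmer one (1387810_at) had 52.3 and 46.5, a ratio of 0.890. The pair of Keap1 probe sets thus pointed in opposite directions, and they differed by 0.34 on the log2 scale. The array measures messenger RNA, and the amount, location and activity of the Nrf2 protein were not measured.

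Genes of cystine uptake and glutathione split into lower and near-equal members. Slc7a11 encodes the light chain of the cystine and glutamate exchanger, which brings in the cystine that limits glutathione synthesis. Its probe set (1378133_at) read 137 without and 102 with T3, a ratio of 0.747. Gsr, glutathione reductase, which restores oxidised glutathione with NADPH, read 143 and 113 (1369061_at), a ratio of 0.791. The enzyme that joins glutamate and cysteine, the first and rate-limiting step of glutathione synthesis, was near equal in both of its subunits. Its catalytic subunit gene Gclc read 171 and 175 in the brighter probe set (1372523_at), a ratio of 1.02, and 111 and 121 in the other (1370688_at), a ratio of 1.09. Its modifier subunit gene Gclm read 441 and 465 (1370030_at), a ratio of 1.05. The 3 probe sets of this enzyme were all slightly above control, on the opposite side from Slc7a11 and Gsr.

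Genes of the thioredoxin and peroxiredoxin branch ranged from near equality to the low value of Srxn1. Prdx1, an abundant cytosolic peroxiredoxin that removes hydrogen peroxide and is a substrate of sulfiredoxin, read 3144 and 3113 (1367613_at), a ratio of 0.990. Its log2 ratio of -0.01 turned to 0.05 after quantile normalization and 0.02 after loess. Txnrd1, the cytosolic thioredoxin reductase, read 790 and 768 in the brighter probe set (1398791_at), a ratio of 0.972, and 699 and 605 in the other (1386958_at), a ratio of 0.866. Srxn1 read 199 and 162 in its second probe set (1384331_at), a ratio of 0.812. Its remaining probe set (1381067_at) read 7.66 and 7.41, absent on both arrays, and has no usable ratio. Srxn1 was therefore lower with T3 in both probe sets that detected it, but by different amounts. Nqo1, the quinone reductase that is a standard marker of Nrf2 activity, read 1443 and 1400 (1387599_a_at), a ratio of 0.971.

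Probe sets of a gene measure the same pair of RNA samples and are not replicates of the treatment. Their disagreement shows how far probe sets of a gene can differ on the same RNA. Both Srxn1 probe sets differed by 0.30 in log2 ratio. Among 782 genes with exactly 2 present probe sets of mean signal 100 or more, the median difference was 0.12, and 10.5% of the genes differed by as much as Srxn1. The pair for Txnrd1 differed by 0.17 and that for Gclc by 0.09, which 36.3% and 61.0% of the same genes matched or exceeded. Of the 4 member genes with 2 present probe sets, 3 had both on the same side of control: Srxn1 and Txnrd1 below it and Gclc above it. The share of all genes with both on the same side was not computed, so this count shows no trait of the members.

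The spread of ratios depends on signal, so each member was set beside probe sets as bright as itself. All probe sets present on both arrays were divided by their geometric mean signal into 5 bins of equal size. In the brightest bin, from 313 upward, 95% of ratios lay between 0.854 and 1.19, and 0.151% of 3305 probe sets were past 1.5-fold lower. The brighter Srxn1 probe set was among these 5 probe sets. The others, named here after their values were seen, were Anp32a (0.445), Tgm1 (0.627), Rtn4 (0.664) and 1 with no single symbol (0.642). Of the 1611 probe sets with a mean signal at least that of Srxn1 (589), none but Srxn1 itself had a ratio as low. That cutoff is the signal of Srxn1 itself. Of the 8441 with a mean signal of at least 100, 15 had a ratio as low, Srxn1 included. These counts describe the 2 arrays, and the spread between cultures was not measured. Srxn1 was already known to be lower in these data when the members were chosen, so its place at the edge of the bin is not independent support.

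**Figure D2:**
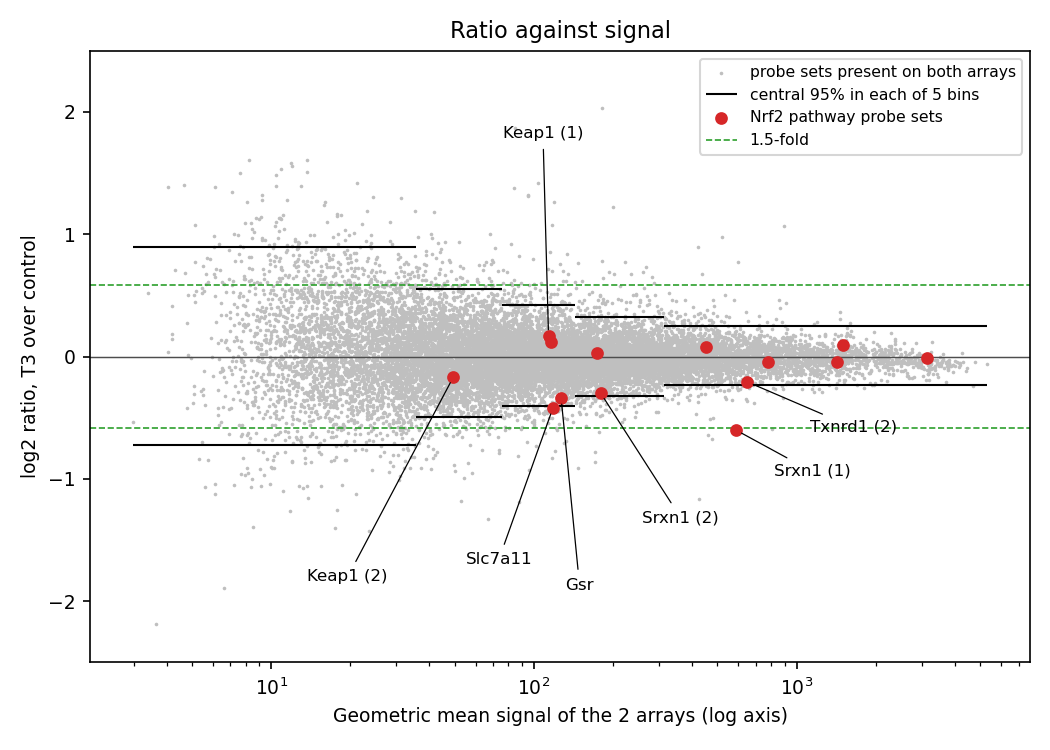
Log2 ratio of T3 to control signal against the geometric mean signal of the 2 arrays (log axis) for all probe sets present on both arrays (grey) and the 14 present member probe sets (red); black lines bound the central 95% in each of 5 bins, and dashed lines mark 1.5-fold. Srxn1 (1) lies at -0.60, below the bound of -0.23 of its bin, and Slc7a11 at -0.42 lies just below the bound of -0.40 of its own.

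Of the other 13 present member probe sets, Slc7a11 was the 1 outside the central 95% of its bin, where ratios ran from 0.757 to 1.34 for mean signals of 75.5 to 144. In that bin 2.12% of probe sets had a ratio at or below that of Slc7a11, and 4.15% one at or below that of Gsr. The second probe set of Srxn1, whose bin had a lower bound of 0.802, stood at the 3.09% lowest, and the second probe set of Txnrd1 at the 3.72% lowest of its bin. Nfe2l2, Nqo1, Prdx1, Gclm, both probe sets of Gclc, both of Keap1 and the brighter one of Txnrd1 had at least 15.7% of their bin as far out on the same side.

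Further genes of the pathway, 69 in 5 lists, gave a similar picture of small differences around 0. Of 63 with a probe set 61 were detected, 1 was past 1.5-fold lower and 0 were higher, with 33 below and 28 above control and a median log2 ratio of -0.01. The 1 lower gene was Oplah, 5-oxoprolinase, which returns 5-oxoproline to glutamate in the glutathione cycle. Its signals were 45.5 and 25.7, a ratio of 0.566, in the bin where ratios spread most. In that bin, the dimmest, with mean signals of 2.98 to 35.7, the central 95% ran from 0.606 to 1.86. Oplah lay below this range. Its mean signal of 34.2 was near the upper end of the bin, and in the next bin the central 95% ran from 0.710 to 1.47. With a pseudocount of 16 its log2 ratio moved from -0.82 to -0.56. The lists and the rest of their genes are described next, each gene by its brightest detected probe set.

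Among 10 detected partners and regulators of Nrf2, 0 were past 1.5-fold and the median was 0.02, with 5 below and 5 above control. Mafg, a small Maf partner of Nrf2, read 34.9 and 40.1 (ratio 1.15), and the coactivator gene Ep300 210 and 230 (1.09). Crebbp, the related coactivator gene, read 149 and 136 (0.916). Sqstm1, whose protein p62 binds Keap1 and is itself a Nrf2 target, read 2655 and 2450 (0.923). Dim probe sets of 2 genes of this list, which do not represent them, were past 1.5-fold higher. That of Sqstm1 read 28.1 and 45.6, a ratio of 1.62. That of Cul3, the scaffold of the ubiquitin ligase that Keap1 serves, was marginal in control at 6.12 and present with T3 at 13.9, while its brightest probe set read 687 and 653 (0.951); Cul3 is named after its values were seen. Bach1, a repressor that competes for the same elements, was absent on both arrays.

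The other thioredoxin, peroxiredoxin and glutaredoxin genes had nearly even signals. Of 15 detected genes 0 were past 1.5-fold, and ratios ran from 0.939 in Txnrd2, the mitochondrial thioredoxin reductase, to 1.11 in Glrx, glutaredoxin. Prdx4, the peroxiredoxin of the endoplasmic reticulum, read 1201 and 1299 (1.08), and Glrx5, needed for iron-sulfur clusters, 499 and 473 (0.949). The median was 0.03.

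In glutathione synthesis and use, Oplah was the 1 of 12 detected genes past 1.5-fold, and the median was 0.01. Slc3a2, the heavy chain that pairs with the Slc7a11 protein, read 742 and 657, a ratio of 0.886. Slc1a5, a neutral amino acid transporter, read 147 and 178 (1.21), and Hagh, a glyoxalase, 353 and 366 (1.04). Both chains of the cystine exchanger were thus below control, Slc7a11 by more.

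The other known Nrf2 targets had 0 of 21 detected genes past 1.5-fold, 13 below and 8 above control, and a median of -0.04. Osgin1, an oxidative stress-induced growth inhibitor, was the highest at 752 and 931 (1.24). Abcc2, a canalicular exporter of conjugates, read 1391 and 1488 (1.07). The lowest were Abcc3, a basolateral exporter, at 70.9 and 60.3 (0.851), and the aldo-keto reductase gene Akr7a3 at 986 and 843 (0.855). Of the 3 detected genes that remove superoxide and hydrogen peroxide, all were slightly below control: Sod1 at 2253 and 2153 (0.956), Sod2 at 322 and 302 (0.937) and Cat, catalase, at 841 and 744 (0.885). None of the 3 was past 1.5-fold.

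**Figure D3:**
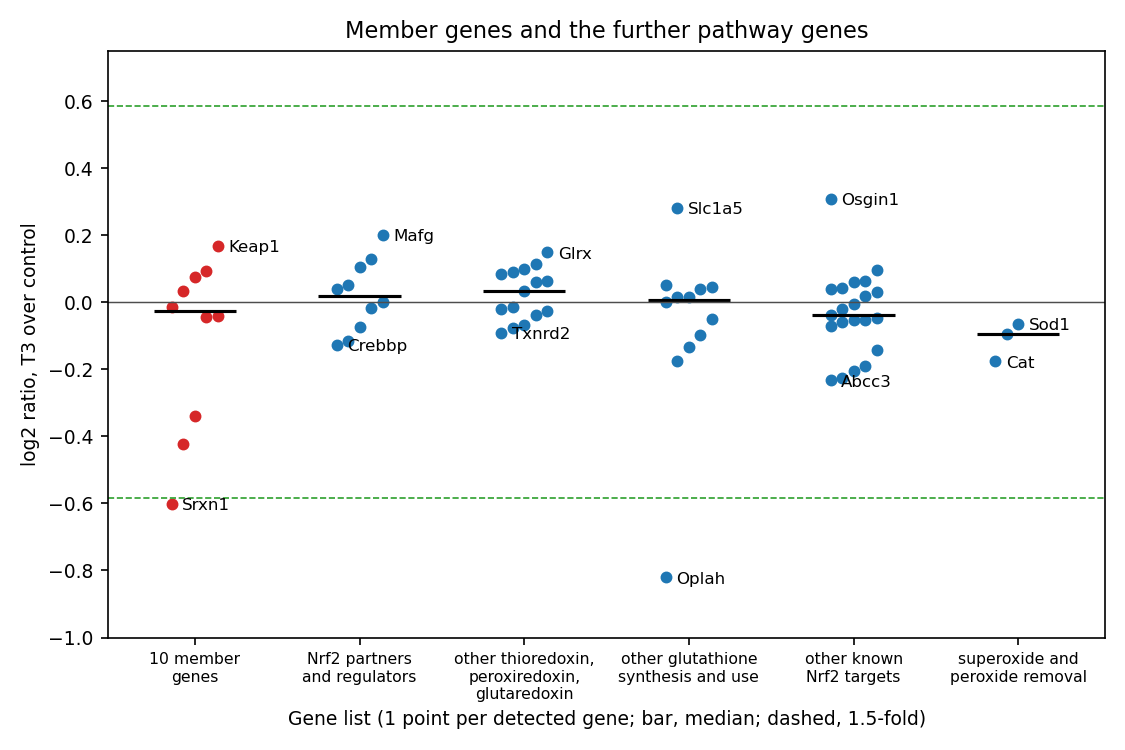
Log2 ratio of T3 to control signal for each detected gene, by its brightest detected probe set, in the 10 member genes (red) and the 5 further lists (blue); bars are medians, dashed lines mark 1.5-fold, and the lowest and highest gene of each list are named. Srxn1 (-0.60) and Oplah (-0.82) are the 2 genes beyond the lower dashed line, and all medians lie between -0.09 and 0.03.

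The deposited selections by fold hold 1 member. In the authors' deposited table of probe sets at least 1.5-fold lower, with 487 entries, Srxn1 is listed at 0.659 by its brighter probe set. The authors' deposited tables at 2-fold and at 1.5-fold higher hold 0 of the 15 member probe sets.

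The cultures were checked for hepatocyte and other markers. Of 8 hepatocyte markers 7 had a probe set and all 7 were present on both arrays, 4 below and 3 above control, with a summed signal of 12476 in control and 11878 with T3. The lowest were Alb at 3972 and 3449 and Apoa1 at 3040 and 2925, and the highest Cps1 at 84.1 and 113 and Fgb at 689 and 702. Of 5 bile duct markers Sox9 and Spp1 were absent on both arrays, and the 3 present ones were all below control. Krt7 read 527 in control and 478 with T3, Krt19 1240 and 1079, and Epcam 1038 and 901. Their summed signal was 2805 in control and 2457 with T3. Stellate cell and fibroblast markers had 6 of 7 detected, 4 of them below control, with sums of 2889 and 2599. Lrat, a stellate cell enzyme, was past 1.5-fold lower at 13.8 and 7.32, and Vim read 1621 and 1418. Acta2 at 102 and 124 and Des at 46.4 and 56.6, the 2 highest, lay above control. The defining leukocyte markers Ptprc, Cd68, Clec4f, Adgre1 and Csf1r and the endothelial markers Pecam1, Cdh5, Kdr and Lyve1 were absent on both arrays. Cd163 was the 1 leukocyte marker detected, at 4.79 and 7.64, which is past 1.5-fold higher. Lrat and Cd163 lie in the dimmest bin, where 4.75% of probe sets were past 1.5-fold lower and 9.44% higher. Which cells of the cultures gave the bile duct, stellate cell and fibroblast marker signals, the hepatocytes themselves or others, was not measured. The part of other cell types in the lower signal of Srxn1, Slc7a11 and Gsr was not tested. In RNA from whole cultures fewer cells of a type and less RNA per cell cannot be told apart.

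The low value of Srxn1 held its direction and most of its size when the signals were processed otherwise. Its ratio was 0.659 as deposited and between 0.659 and 0.687 with a pseudocount, median centring, quantile normalization, loess or the series value table. It stands close to the 1.5-fold limit, and with a pseudocount of 64, or with the median over its detected probe sets, 0 member genes were past it. Slc7a11 and Gsr stayed below control under the same settings, at log2 ratios of -0.42 to -0.27 and -0.34 to -0.22. Nfe2l2, Gclc and Gclm stayed above control and Nqo1 and Txnrd1 below it. Of these settings, a pseudocount and the series value table cannot change the direction of a ratio.

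**Figure D4:**
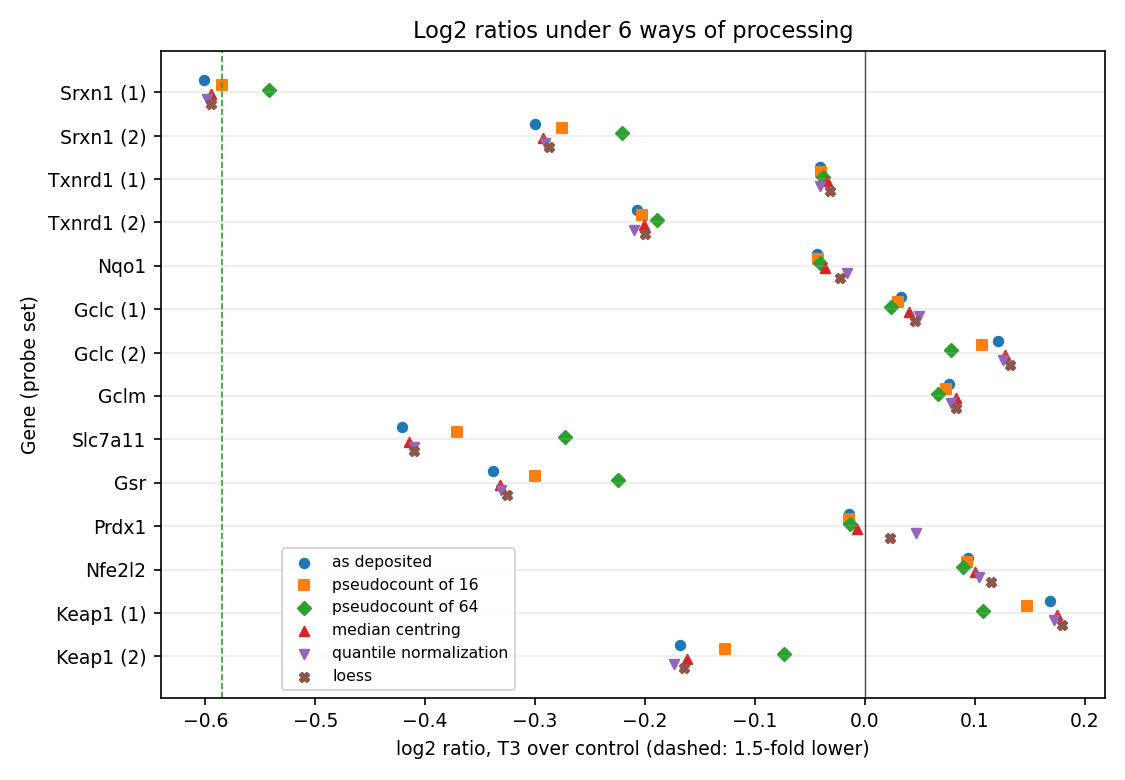
Log2 ratio of T3 to control signal of the 14 present member probe sets as deposited and under 5 other ways of processing (symbols); the dashed line marks 1.5-fold lower. Srxn1 (1) lies between -0.60 and -0.54, and Prdx1 is the 1 probe set whose points fall on both sides of 0.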

How the data were processed

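RNA of 1 control and 1 T3-treated hepatocyte culture was measured on 1 array each. The authors deposited a MAS5 signal intensity, a detection p-value and a detection call per probe set and array, per the file headers. Affymetrix Expression Console is named in the submitters' processing notes. Its version is not given in the sources used here, nor is the level to which signals were scaled. The 2 arrays had the same mean intensity, 100.04, with 2% trimmed at each end. The deposited ratio is T3 over control intensity and equalled the quotient of the signals. The series value table holds the same intensities.

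Log2 ratios were computed with Python 3.11.15, without a pseudocount. The 57 array controls were left out. The highest detection p-value of a present call was 0.0461. Member probe sets were matched by the symbol in the file. Other probe sets were named by gene number through the RefSeq gene table of GRCr8, and 19169 had 1 symbol. A gene was represented by its detected probe set of highest mean signal. Loess (span 0.3) used statsmodels 0.14.6. The calculation was tested on simulated data. Named genes were all members and, in each further list, those past 1.5-fold and the 2 highest and 2 lowest present on both arrays. The members and lists were chosen with earlier results of these data known.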

Additional observations from a re-analysis of the deposited data

How the results depend on the processing

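The alternatives were 2 pseudocounts, 2 detection filters, 3 normalizations, the series value table and 2 other ways to represent a gene. The number of member genes past 1.5-fold lower was 1 as reported and 0 with a pseudocount of 64 or with the median over a gene's probe sets. It stayed 1 under the other 8 alternatives, and the number higher was 0 under all 10. Several of these could not have changed the count of lower genes. The series value table holds the same intensities, and the brighter Srxn1 probe set was present on both arrays and had the larger change. The median log2 ratio of the members ran from -0.03 to 0.01. Over all probe sets, lower and higher at 1.5-fold were 485 and 754, 62 and 119 with a pseudocount of 16, 7 and 17 with 64, 3668 and 4867 without a detection filter, and 224 and 426 with presence required on both arrays. Quantile normalization gave 609 and 604, so that 49.8% of those past the limit were higher in place of 60.9%, and loess gave 53.0%. Of 204 single values recomputed, 8 moved by over 0.1 on the log2 scale, 5 of them with a pseudocount of 64. The Prdx1 probe set changed sign under 2 of its 6 alternatives. The values past 1.5-fold, those of the brighter Srxn1 probe set and Oplah, did not change sign. A pseudocount and the series value table cannot change a sign. Median centring subtracts a median of -0.007 from every log2 ratio, too little to turn the values of Srxn1 and Oplah. No paired analysis was possible because each group has 1 array. Leaving out an array was likewise not possible.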
